A study of Bos taurus with 8 samples.

Results

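The genes described here encode the killing machinery of natural killer (NK) cells and cytotoxic T cells. They are 10 genes, PRF1, GZMA, GZMB, NKG7, CTSW, FASLG, NCR1, NCR3, KLRK1 and CD244, chosen by name and found on the array through the accession of each probe. They were measured by 22 of 43653 probes, and all 10 genes and all 22 probes passed a filter on dim probes that left 15137 genes and 24658 probes. CTSW had 4 probes, PRF1 and FASLG 3 each, GZMA, GZMB, NCR3, KLRK1 and CD244 2 each, and NKG7 and NCR1 1 each. Of the 22 probes, 18 were well above background on all 8 arrays, and the exceptions were both GZMA probes and 2 of the 3 FASLG probes.

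RNA came from peripheral blood mononuclear cells (PBMCs), in which lymphocytes and monocytes are enriched over other leukocytes, of lame crossbred, normal crossbred and normal Tharparkar cattle. Tharparkar is an Indian zebu breed, and the labels do not give the breeds behind the crossbred animals, nor age, sex or the cause of lameness. No group received a stated treatment. There were 4 arrays of the lame group (R1_1, R1_2, R2_1 and R2_2) and 2 arrays (R1 and R2) of each normal group, on a 1-colour Agilent bovine design. RNA samples were run as technical duplicates per the labels, but no label says which arrays share an RNA sample, or whether an RNA sample was 1 animal or a pool.

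Array values correlated across genes at 0.995 within lame R1, 0.981 within lame R2, 0.9965 within the normal crossbred pair and 0.9952 within the normal Tharparkar pair. The correlation of lame R1 with lame R2 arrays was 0.9512 to 0.9698, and that between groups 0.9311 to 0.9657. The 8 arrays are therefore described below as duplicates of 4 RNA samples, of which 2 (lame R1 and lame R2) belong to the lame group and 1 to each normal group. Lame R2_2 stood apart in brightness, with 70.95% of probes well above background against 52.8% to 61.5% on the other 7, and a median raw signal of 192.5 against 74 to 102. In the results, n counts arrays, and p-values measure the spread between arrays within groups. In the group comparisons that spread mixes technical duplicates with the difference between lame R1 and lame R2. Each normal group is 1 RNA sample, whose duplicates show no spread between animals. The p-values count arrays as independent, so they are too small as tests of cattle. With duplicates averaged, or with the RNA sample as a random block, limma called 0 of the 10 genes in each of the 3 group comparisons, and at an unadjusted p under 0.05 it found 1, 2 and 1 of them with duplicates averaged and 6, 7 and 1 with the random block. In the same fits, 1.1%, 2.46% and 3.51% of all genes were called with duplicates averaged and 0.152%, 0.634% and 1.35% with the random block. The 3 comparisons share their groups, so each one's values are given for itself.

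NK cells and cytotoxic T cells kill a target cell by releasing granules at the point of contact. Perforin from the granule opens the target's membrane to granzymes, proteases that start cell death, while the death ligand on the killer's surface can trigger the same end through a receptor on the target. Activating receptors on NK cells help to decide when this happens, and some of them recognise stress-induced or viral ligands. In cattle, NKp46, the product of NCR1, is the usual marker of NK cells in blood. In bulk RNA such as this, fewer cells of a type and less RNA per cell cannot be told apart.

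Most of the 10 genes were lower in lame than in normal crossbred arrays and higher in normal crossbred than in normal Tharparkar arrays. Against normal crossbred, 6 fell in the lame arrays: NKG7, NCR3, FASLG, PRF1, CTSW and CD244, by 1.68-fold to 2.71-fold. Over all genes, 6.32% were called lower there. Against normal Tharparkar, 6 rose in the normal crossbred arrays: CTSW, NCR3, CD244, PRF1, NKG7 and FASLG, by 1.84-fold to 3.74-fold. Over all genes, 11.7% were called higher there. Between lame and normal Tharparkar arrays, GZMA, CTSW and CD244 rose and the other 7 were not called, beside 12.5% of all genes called higher. GZMA passed the filter on dim probes only through the lame and normal crossbred arrays, so its call there is no evidence of a difference. Levels below are log2 signal relative to the array's own 75th percentile over probes, so 0 is that percentile and 1 unit is a doubling, and each level is that of the gene's brightest probe. A called gene had a Benjamini-Hochberg adjusted p under 0.05 in limma over all 15137 genes.

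**Figure D1:**
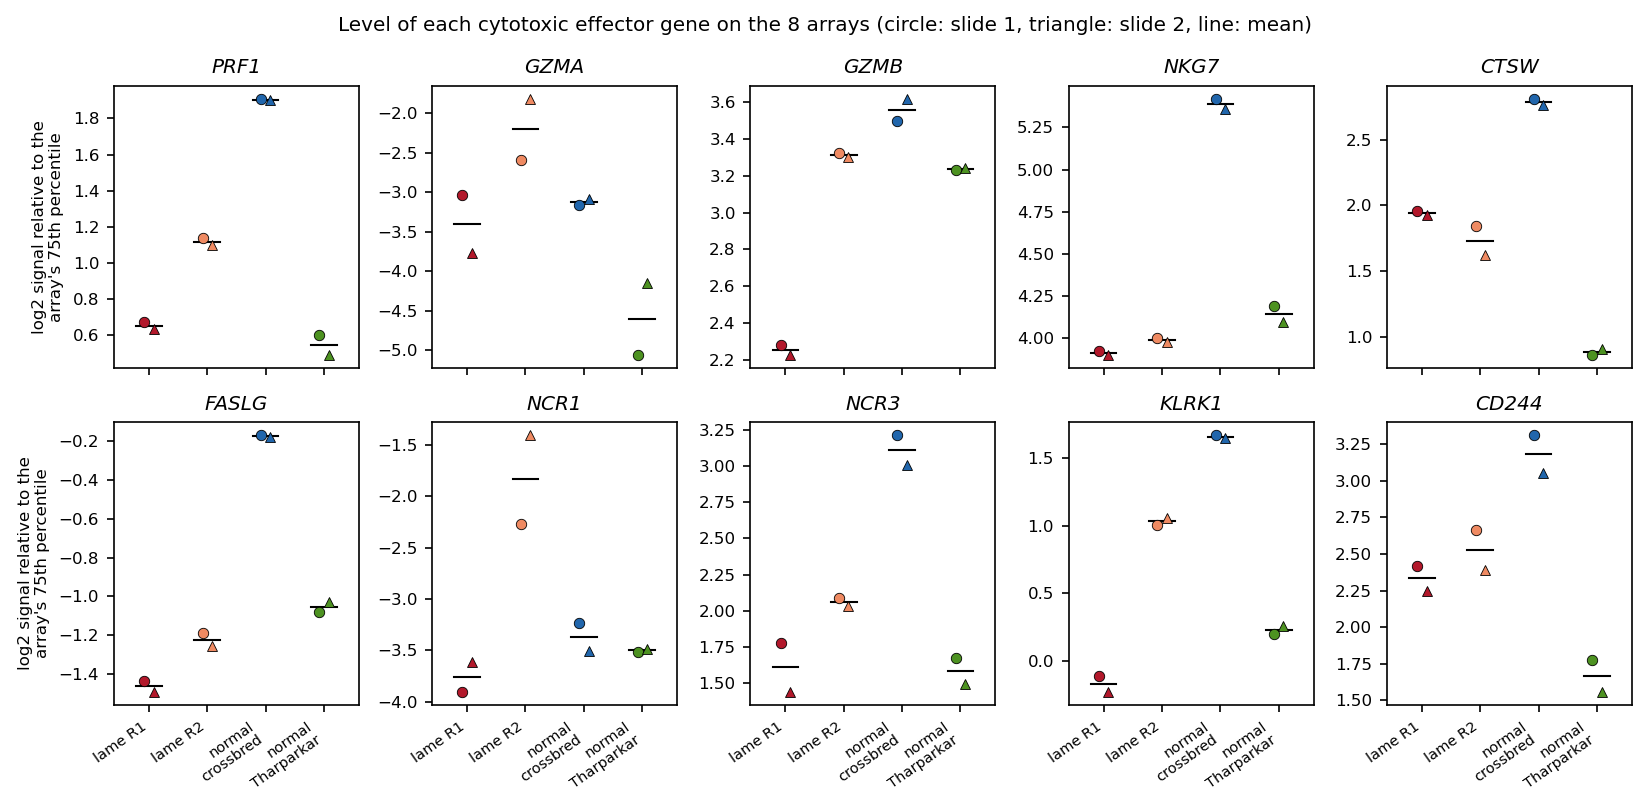
Level of each of the 10 genes on each of the 8 arrays, on the y axis as log2 signal relative to the array's 75th percentile, by RNA sample on the x axis, the lame ones left of normal crossbred and Tharparkar. Circles are arrays of slide 1, triangles arrays of slide 2, and the line is the mean of the 2 arrays. The normal crossbred points are above all the others for PRF1, GZMB, NKG7, CTSW, FASLG, NCR3, KLRK1 and CD244, and lame R2 is highest for GZMA and NCR1.

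Among the granule proteins, NKG7 encodes a membrane protein of the granule that is needed for its release. Its level was 3.92 and 3.90 on the lame R1 arrays and 4.00 and 3.98 on the lame R2 arrays, against 5.42 and 5.36 on the normal crossbred and 4.19 and 4.1 on the normal Tharparkar arrays. All 4 lame arrays lay close together and below every other array. The mean was 3.95 ± 0.05 in lame (SD, n = 4) and 5.39 ± 0.04 in normal crossbred arrays (SD, n = 2), a 2.71-fold lower signal in lame (log2 difference -1.44, SE 0.12, adjusted p = 0.00113). Normal crossbred was 2.37-fold above normal Tharparkar (1.25, SE 0.14, adjusted p = 0.00195). Lame against normal Tharparkar gave -0.19 (SE 0.12, adjusted p = 0.3), although the groups did not overlap.

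PRF1 encodes perforin, the pore-forming protein. Its level was 0.68 and 0.63 on lame R1, 1.14 and 1.1 on lame R2, 1.91 and 1.90 on normal crossbred, and 0.60 and 0.49 on normal Tharparkar arrays. The lame RNA samples differed from each other and both lay between the normal groups, with lame R1 next to Tharparkar. PRF1 was 2.02-fold lower in lame than in normal crossbred (-1.02, SE 0.19, adjusted p = 0.0198) and 2.56-fold higher in normal crossbred than in Tharparkar (1.36, SE 0.22, adjusted p = 0.00686). Lame against Tharparkar gave 0.34 (SE 0.19, adjusted p = 0.235). Its 2 dimmer probes gave -0.96 and -0.44 for lame against normal crossbred, neither of which was called.

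CTSW encodes cathepsin W, a protease of NK and cytotoxic T cells. Its level was 1.95 and 1.93 on lame R1, 1.84 and 1.62 on lame R2, 2.81 and 2.76 on normal crossbred, and 0.86 and 0.90 on normal Tharparkar arrays. The 3 groups were fully separated, with lame in the middle. CTSW was 1.93-fold lower in lame than in normal crossbred (-0.95, SE 0.15, adjusted p = 0.00964), 3.74-fold higher in normal crossbred than in Tharparkar (1.90, SE 0.17, adjusted p = 0.000768) and 1.94-fold higher in lame than in Tharparkar (0.95, SE 0.15, adjusted p = 0.00463). Of its 3 other probes, 1 was called in all 3 comparisons (-0.93, 2.10 and 1.17), 1 only for normal crossbred against Tharparkar (1.30) and 1 in none.

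GZMB encodes granzyme B, a protease that activates caspases. Its level was 2.28 and 2.22 on lame R1, 3.32 and 3.30 on lame R2, 3.50 and 3.62 on normal crossbred, and 3.23 and 3.24 on normal Tharparkar arrays. Lame R1 stood alone at the bottom, and lame R2 lay within 0.4 of both normal groups. The lame mean of 2.78 ± 0.61 (SD, n = 4) against 3.56 ± 0.09 in normal crossbred (SD, n = 2) gave -0.77 (SE 0.36, adjusted p = 0.229). Normal crossbred against Tharparkar gave 0.32 (SE 0.42, adjusted p = 0.639), with a 95% interval of -0.65 to 1.29, and lame against Tharparkar gave -0.45 (SE 0.36, adjusted p = 0.397). The other GZMB probe had 1.08 and 1.03 on lame R1 and 3.47 and 3.40 on lame R2, against 3.26 and 3.26 on normal crossbred and 3.19 and 3.30 on Tharparkar arrays. On this probe, too, lame R1 was the low sample.

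GZMA encodes granzyme A, a protease with trypsin-like specificity, and was measured by 2 dim probes. The level of its brighter probe was -3.04 and -3.77 on lame R1, -2.59 and -1.81 on lame R2, -3.17 and -3.09 on normal crossbred, and -5.07 and -4.16 on normal Tharparkar arrays. Lame and normal crossbred arrays overlapped, the duplicates of 3 RNA samples differed by over 0.7, and only 1 of the 2 Tharparkar arrays was well above background. GZMA gave 0.33 for lame against normal crossbred (SE 0.51, adjusted p = 0.749) and 1.48 for normal crossbred against Tharparkar (SE 0.59, adjusted p = 0.126). It was 3.5-fold higher in lame than in Tharparkar (1.81, SE 0.51, adjusted p = 0.0419), but normexp background correction turned this to -0.11 (adjusted p = 0.822). The probe passed the filter only through the lame and normal crossbred arrays, where it was brighter. Its call against Tharparkar is thus no evidence of a difference.

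The other GZMA probe gave another answer. It had -3.50 and -3.40 on lame R1, -3.73 and -3.25 on lame R2, -2.43 and -2.54 on normal crossbred, and -4.27 and -4.39 on Tharparkar arrays, where neither array was well above background. The 3 groups were separated, with normal crossbred highest. Lame was lower than normal crossbred by -0.98 (SE 0.17), so the probes of GZMA disagree in sign in that comparison. This probe passed the filter only through normal crossbred, the group where it was bright. A higher level there was thus built in, and its calls are no evidence of one. Against Tharparkar, normal crossbred was at least 3.43-fold higher, and lame, where 3 of 4 arrays measured the probe, at least 1.73-fold higher. Each bound sets the brighter group's mean against the dimmest signal that still counted as well above background on each dim array, or the probe's own signal where that was higher.

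FASLG encodes Fas ligand, the death ligand that kills through the Fas receptor. Its level was -1.44 and -1.49 on lame R1, -1.19 and -1.26 on lame R2, -0.17 and -0.18 on normal crossbred, and -1.08 and -1.03 on normal Tharparkar arrays. Both lame samples were lower than both normal groups on every array. FASLG was 2.25-fold lower in lame than in normal crossbred (-1.17, SE 0.14, adjusted p = 0.00403) and 1.84-fold higher in normal crossbred than in Tharparkar (0.88, SE 0.17, adjusted p = 0.0118). Lame against Tharparkar gave -0.29 (SE 0.14, adjusted p = 0.184). The 2 dimmer FASLG probes gave -0.42 and -0.24 for lame against normal crossbred, and neither was called in any comparison.

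Among the receptors, NCR3 encodes NKp30, an activating receptor of NK cells. Its level was 1.78 and 1.44 on lame R1, 2.09 and 2.03 on lame R2, 3.22 and 3.01 on normal crossbred, and 1.67 and 1.49 on normal Tharparkar arrays. Normal crossbred was well above the rest, and lame and Tharparkar arrays overlapped. NCR3 was 2.43-fold lower in lame than in normal crossbred (-1.28, SE 0.21, adjusted p = 0.0125) and 2.9-fold higher in normal crossbred than in Tharparkar (1.53, SE 0.24, adjusted p = 0.00634). Lame against Tharparkar gave 0.25 (SE 0.21, adjusted p = 0.425), with a 95% interval of -0.24 to 0.75. Its other probe gave -1.13 and 0.99 in the first 2 of these comparisons, with adjusted p-values over all probes of 0.0877 and 0.114.

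CD244 encodes 2B4, a receptor of the SLAM family that binds CD48. Its level was 2.42 and 2.25 on lame R1, 2.66 and 2.39 on lame R2, 3.31 and 3.05 on normal crossbred, and 1.78 and 1.56 on normal Tharparkar arrays. As with CTSW, the groups were separated in the order normal crossbred, lame, Tharparkar. CD244 was 1.68-fold lower in lame than in normal crossbred (-0.75, SE 0.17, adjusted p = 0.036), 2.86-fold higher in normal crossbred than in Tharparkar (1.51, SE 0.20, adjusted p = 0.00308) and 1.7-fold higher in lame than in Tharparkar (0.76, SE 0.17, adjusted p = 0.0187). Its other probe was called in the first 2 comparisons (-0.94 and 1.58) and gave 0.64 in the third (adjusted p = 0.0722 over all probes).

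KLRK1 encodes NKG2D, an activating receptor for stress-induced ligands related to MHC class I. Its level was -0.11 and -0.22 on lame R1, 1.01 and 1.06 on lame R2, 1.66 and 1.64 on normal crossbred, and 0.20 and 0.26 on normal Tharparkar arrays. The duplicates were close and the lame RNA samples far apart, one below and one above Tharparkar. The difference of -1.22 between lame and normal crossbred was as large as those of called genes but its error was larger (SE 0.40, adjusted p = 0.106), and normal crossbred against Tharparkar gave 1.42 (SE 0.46, adjusted p = 0.0738). Lame against Tharparkar gave 0.20 (SE 0.40, adjusted p = 0.749). Its other probe gave -1.02 for lame against normal crossbred (adjusted p = 0.122 over all probes) and was called for normal crossbred against Tharparkar (1.69, adjusted p = 0.0259).

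NCR1 encodes NKp46 and was measured by 1 dim probe. Its level was -3.90 and -3.62 on lame R1, -2.27 and -1.41 on lame R2, -3.23 and -3.50 on normal crossbred, and -3.51 and -3.48 on normal Tharparkar arrays. Lame R2 was the high sample, and the other 6 arrays lay within 0.7 of one another. NCR1 was called in none of the 3 comparisons: lame against normal crossbred gave 0.57 (SE 0.66, adjusted p = 0.649), normal crossbred against Tharparkar 0.13 (SE 0.76, adjusted p = 0.926) and lame against Tharparkar 0.70 (SE 0.66, adjusted p = 0.479). The intervals were wide, from -0.98 to 2.12 in the first and from -1.65 to 1.92 in the second. Lame R2_2, the brightest array, carried the highest value.

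Lame against normal crossbred compares animals that are all labelled crossbred, with the breeds behind them not given. Of the 10 genes, 6 fell, beside 6.32% of all genes called lower, and 0 rose (0 also at an unadjusted p under 0.05 in limma, 7 lower), beside 3.3% called higher. The arrays did not overlap for 8 genes, each of them lower in lame, beside 23.1% of all genes with all lame arrays lower. The median log2 difference of the 10 was -0.98, against -0.04 over all genes. It was -0.96 within slide 1 and -1.01 within slide 2, and 8 genes were lower and 2, GZMA and NCR1, higher on both slides. With slide as a block, 6 fell. Without normal crossbred R1, and likewise without normal crossbred R2, only 1 of the 10 was called, beside 1.18% and 1.23% of all genes.

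Normal crossbred against normal Tharparkar compares 2 kinds of cattle without lameness. Of the 10 genes, 6 rose, beside 11.7% of all genes called higher, and 0 fell (0 also at an unadjusted p under 0.05 in limma, 8 higher), beside 6.91% called lower. All normal crossbred arrays were higher for 9 genes, NCR1 being the exception, beside 41.5% of all genes. GZMA, among these 9 and the 8 above, passed the filter only through the lame and normal crossbred arrays. Its part in both counts is no evidence of a rise. The median difference was 1.39, against 0.01 over all genes, and 1.39 within slide 1 and 1.32 within slide 2. With slide as a block, 6 rose. Without normal crossbred R1 or without Tharparkar R2 the count was 3, beside 4.84% and 5.59% of all genes called either way. Without normal crossbred R2 or Tharparkar R1 it was 4, beside 4.72% and 5.24%, and without lame R2_2 it was 8, beside 26.3%. Breed and any other trait of these 2 RNA samples cannot be told apart.

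For lame crossbred against normal Tharparkar, 3 of the 10 rose, beside 12.5% of all genes called higher, and 0 fell (0 at an unadjusted p under 0.05 in limma, 3 higher), beside 10.8% called lower. The groups did not overlap for 6 genes, of which 4 were higher in lame (PRF1, GZMA, CTSW and CD244), beside 24.8% of all genes, and 2 lower (NKG7 and FASLG), beside 25.2%. GZMA, among the 3 and the 4, passed the filter only through the lame and normal crossbred arrays. Its part in both counts is no evidence of a rise. The median was 0.30, against -0.01 over all genes, and 0.28 within slide 1 and 0.31 within slide 2. With slide as a block, 2 rose. Without Tharparkar R1 or without Tharparkar R2, limma called 0 of the 10, with 2 and 3 at an unadjusted p under 0.05, beside 5.63% and 6.07% of all genes called. In the background, normexp correction moved the share of lower genes among all called to 78.5% for lame against normal crossbred, where it was 65.7%, and to 63.9% for lame against Tharparkar, where it was 46.3%.

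**Figure D2:**
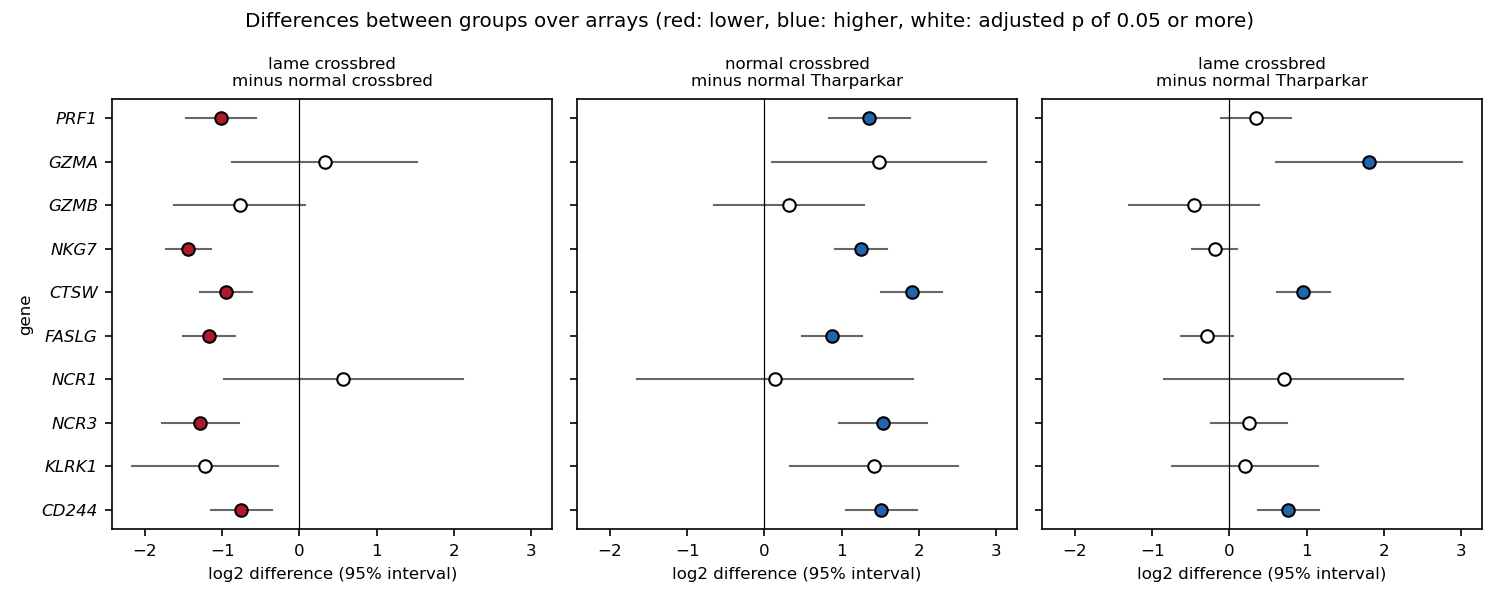
Log2 difference of each of the 10 genes (y axis) in the 3 comparisons, with its 95% interval from limma over arrays (x axis). Red points were called lower, blue points higher, and white points had an adjusted p of 0.05 or more. In the left panel 6 genes are red and none is blue, in the middle panel 6 are blue and none is red, and in the right panel GZMA, CTSW and CD244 are blue. GZMA passed the filter only through the lame and normal crossbred arrays, so its call in the right panel is no evidence of a difference.

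Probe by probe, 9 of the 22 were called lower in lame than in normal crossbred arrays, beside 4.12% of all probes called lower. Against Tharparkar, 11 were called higher in normal crossbred arrays, beside 9.64%, and for lame against Tharparkar 5, beside 11.7%. Each of these counts includes the dimmer GZMA probe, which passed the filter only through normal crossbred arrays. That of 5 also includes the brighter GZMA probe, which passed only through the lame and normal crossbred arrays. Of the genes with more than 1 probe, GZMA was the one whose probes differed in sign for lame against normal crossbred. Without normal crossbred R1, limma called 0 probes for lame against normal crossbred (10 at an unadjusted p under 0.05), and without normal crossbred R2 it called 1. With the same arrays left out, 1.18% and 1.23% of all genes were called.

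**Figure D3:**
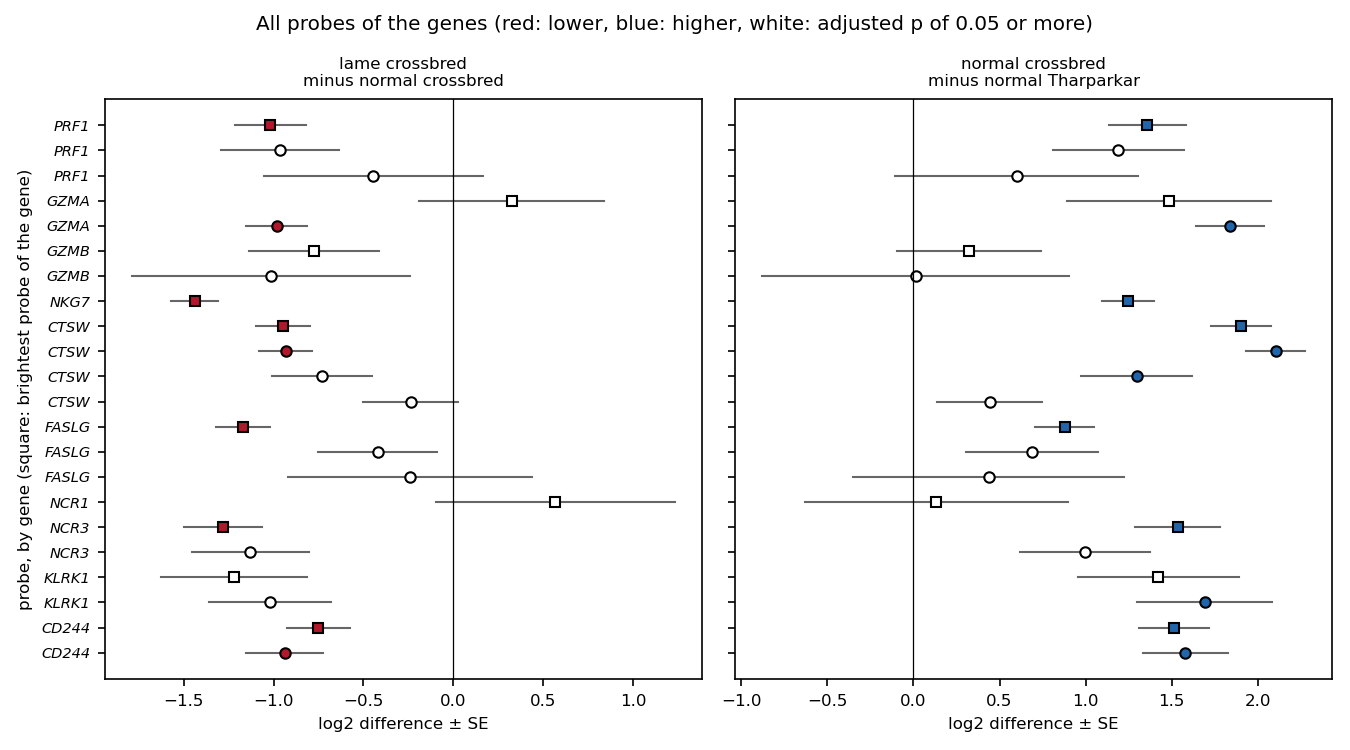
Log2 difference and SE (x axis) of every one of the 22 probes (y axis, named by gene) for lame against normal crossbred on the left and normal crossbred against normal Tharparkar on the right. Squares are the brightest probe of each gene, red is called lower, blue called higher and white an adjusted p of 0.05 or more over all probes. On the left 9 probes are red, and the 2 squares right of 0 are GZMA and NCR1.

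The lame group did not behave as a single level. In a fit with a mean for each of the 4 RNA samples, whose 4 residual degrees of freedom come from duplicates alone, 7 of the 10 genes were lower in lame R1 than in lame R2, and 0 were higher (0 at an unadjusted p under 0.05, 7 lower). Over all genes 19.3% were called lower, 36.5% higher and 55.8% either way, with a median of 0.18, so a call here is common, whereas the median of the 10 genes was -0.46. On the brightest probes, NCR1 gave -1.92 (SE 0.28, adjusted p = 0.00305), GZMA -1.20 (SE 0.41, adjusted p = 0.0495), KLRK1 (-1.20, SE 0.08, adjusted p = 0.000575) and GZMB (-1.06, SE 0.08, adjusted p = 0.000658). PRF1 (-0.46), NCR3 (-0.45) and FASLG (-0.24) differed less. NKG7 (-0.08), CTSW (0.21) and CD244 (-0.19) were not called. Other probes of a gene could differ from these values. The other GZMB probe gave -2.38 (adjusted p = 0.00031 over all probes), the other GZMA probe 0.03 (adjusted p = 0.871), 1 CTSW probe -0.76 (adjusted p = 0.00212) and the other CD244 probe -0.52 (adjusted p = 0.00691). The dimmer FASLG probes gave -0.82 and -1.95, and the dimmer PRF1 probes -0.92 and -1.75. Without lame R1_2, and likewise without lame R2_2, 4 of the 10 were called.

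Set against normal crossbred one at a time in that fit, lame R1 was lower for 8 genes and lame R2 for 8, beside 19% and 33.4% of all genes called lower, with p-values that count duplicates only. NKG7 gave -1.48 in lame R1 and -1.40 in lame R2, CTSW -0.85 and -1.05, and CD244 -0.85 and -0.66. FASLG gave -1.29 in lame R1 and -1.05 in lame R2, NCR3 -1.51 and -1.05, and PRF1 -1.25 and -0.79. On their brightest probes, these 6 genes lay below normal crossbred in both lame samples, and the last 3 were also called lower in lame R1 than in lame R2. Other probes could differ. In lame R2, the dimmer FASLG probes gave -0.01 and 0.73, and the dimmer PRF1 probes -0.50 and 0.43. KLRK1 gave -1.82 in lame R1 and -0.62 in lame R2, and GZMB -1.30 and -0.25, each of them called lower. The other GZMB probe gave 0.18 in lame R2. NCR1 gave -0.39 in lame R1 (adjusted p = 0.32) and 1.53 in lame R2 (adjusted p = 0.00715). The lame samples are only 2, and what sets them apart was not tested.

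The genes around these 10 were taken from 8 lists of the same pathway, of which 66 further genes were measured. For lame against normal crossbred, 12 of the 66 fell and 3 rose, with a median of -0.28. For normal crossbred against Tharparkar, 19 rose and 7 fell (median 0.30), and for lame against Tharparkar 13 rose and 13 fell (median 0.06). Called either way were 9.61%, 18.6% and 23.3% of all genes in these 3 comparisons. The counts include genes that passed the filter only through groups where they were bright, so their calls are no evidence. ULBP3 and KLRC1, the latter dim in both groups, were among the 3 that rose in lame against normal crossbred. KLRD1 and EOMES were among those that rose in both comparisons with Tharparkar, and KLRC1 among those that fell. ULBP3 was also 1 of the 7 that fell. With the RNA sample as a random block, limma called 0, 0 and 1 of the 66 in the 3 comparisons, with 13, 18 and 16 at an unadjusted p under 0.05. Single arrays mattered too. Without either normal crossbred array the count for lame against normal crossbred was 3, beside 1.18% and 1.23% of all genes called either way. Without either Tharparkar array it was 9, beside 4.74%. Normal crossbred against Tharparkar gave 9 to 11 without any 1 of its 4 arrays, beside 4.72% to 5.59%. For lame against Tharparkar the count was 6 without Tharparkar R1 and 8 without Tharparkar R2, beside 5.63% and 6.07% of all genes called.

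Among the other receptors, 9 were measured, and for lame against normal crossbred 2 fell and 1 rose. CD96, a receptor for nectin ligands, was 2.11-fold lower (-1.08, SE 0.12, adjusted p = 0.00289) and SLAMF7, a SLAM family receptor, 2.32-fold lower (-1.21, SE 0.23, adjusted p = 0.0215). The gene that rose was KLRC1, which encodes an NKG2 chain and was well above background on 1 of 4 lame and neither normal crossbred array, so its bound was only 1.06-fold (adjusted p = 0.00506). In normal crossbred against Tharparkar arrays, 4 were called higher and 1 lower. CD96 was 2.39-fold higher (1.25, SE 0.14, adjusted p = 0.00171). KLRD1, which encodes CD94, the partner chain of the NKG2 receptors, and KLRC1 each passed the filter only through the group where they were bright, so a difference was built in and their calls are no evidence of one. KLRD1 was at least 2.23-fold higher in normal crossbred than in Tharparkar arrays, but the difference was -0.32 with normexp, and KLRC1 was at least 2.25-fold lower.

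Of 11 adaptors and kinases downstream of the receptors, 2 fell in lame against normal crossbred and 4 rose in normal crossbred against Tharparkar arrays. HCST, which encodes DAP10, an adaptor of NKG2D in other mammals, was 1.8-fold lower in lame than in normal crossbred (-0.85, SE 0.21, adjusted p = 0.0489) and 2.53-fold higher in normal crossbred than in Tharparkar (1.34, SE 0.24, adjusted p = 0.0103). FYN, a Src family kinase, gave -0.75 (SE 0.14, adjusted p = 0.0186) and 1.56 (SE 0.16, adjusted p = 0.00125) in the same comparisons. LCK, another Src family kinase, was 1.96-fold higher in normal crossbred than in Tharparkar (0.97, SE 0.25, adjusted p = 0.0332).

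Of 5 further genes for granule contents, limma called 0 for lame against normal crossbred (1 at an unadjusted p under 0.05), and CTSC, which encodes the protease that activates granzymes, was 3.11-fold higher in normal crossbred than in Tharparkar (1.64, SE 0.38, adjusted p = 0.0242). Of 8 genes for granule transport and release, limma called 0 for lame against normal crossbred (0 at an unadjusted p under 0.05), with a median of -0.24. CORO1A, an actin regulator (-0.73, SE 0.17, adjusted p = 0.0237), and VAMP8, a membrane fusion protein (-0.72, SE 0.19, adjusted p = 0.0403), were lower in normal crossbred than in Tharparkar arrays. In lame against Tharparkar arrays, 3 of the 8 fell and 1 rose (median -0.48). CORO1A (-1.01, adjusted p = 0.0037), VAMP8 (-0.78, adjusted p = 0.0165) and AP3B1, a subunit of a vesicle coat adaptor (-0.62, adjusted p = 0.0146), were lower. RAB27A, which docks granules at the membrane, was 1.79-fold higher in lame than in Tharparkar (0.84, SE 0.14, adjusted p = 0.00614).

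Of 8 further death ligands and secreted effectors, 2 fell in lame against normal crossbred, and 3 rose and 1 fell in normal crossbred against Tharparkar arrays. IFNG, which encodes interferon gamma, was 2.86-fold lower in lame than in normal crossbred (-1.52, SE 0.18, adjusted p = 0.00342) and 4.54-fold higher in normal crossbred than in Tharparkar (2.18, SE 0.20, adjusted p = 0.000894). CCL4, a chemokine, was 4.01-fold lower in lame than in normal crossbred (-2.0, SE 0.26, adjusted p = 0.00552) and 3.78-fold lower in lame than in Tharparkar (-1.92, SE 0.26, adjusted p = 0.00312). In normal crossbred against Tharparkar arrays, the cytokine TNF rose (1.26, SE 0.18, adjusted p = 0.00434) and the chemokine CCL3 fell (-0.95, SE 0.18, adjusted p = 0.0117).

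Of 5 cytokine and homing receptors, 2 fell in lame against normal crossbred: IL2RG, the shared chain of several interleukin receptors (-0.84, SE 0.21, adjusted p = 0.0471), and S1PR5, a receptor that lets NK cells leave tissue in mice (-0.63, SE 0.15, adjusted p = 0.0427). Against Tharparkar, 3 rose in normal crossbred arrays, with CX3CR1, the fractalkine receptor, 2.91-fold higher (1.54, SE 0.16, adjusted p = 0.00121). Of 10 transcription factors, TOX (-2.01, SE 0.18, adjusted p = 0.00126) and NFIL3 (-1.80, SE 0.13, adjusted p = 0.000564), both needed for NK cell development in mice, fell in lame against normal crossbred, and ID2, needed with them, rose (0.76, SE 0.17, adjusted p = 0.0355). TOX was 5.52-fold higher in normal crossbred than in Tharparkar (2.47, SE 0.21, adjusted p = 0.000676). EOMES, a T-box factor of NK and CD8 T cells, was not well above background on either Tharparkar array. It passed the filter only through the lame and normal crossbred arrays. A difference from Tharparkar was thus built in, and its calls are no evidence of one. EOMES was at least 2.61-fold higher in normal crossbred and at least 2.47-fold higher in lame than in Tharparkar arrays. Normexp turned these differences to -0.22 and -0.39.

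On the side of the target cell, 10 genes were measured. FAS, the receptor for the death ligand, was 1.88-fold lower in lame than in normal crossbred (-0.91, SE 0.14, adjusted p = 0.00961), in the same direction as FASLG. NCR3LG1, which encodes B7-H6, the ligand of NKp30, was 2.64-fold lower (-1.40, SE 0.20, adjusted p = 0.00735). ULBP3, which belongs to the family of NKG2D ligands, was not well above background on either normal crossbred array. It passed the filter only through the lame and Tharparkar arrays. A lower level in normal crossbred was thus built in, and its calls are no evidence of one. ULBP3 was at least 3.33-fold higher in lame than in normal crossbred, and at least 4.49-fold lower in normal crossbred than in Tharparkar arrays. KLRK1, which encodes the receptor and was not called, gave -1.22 for lame against normal crossbred and 1.42 for normal crossbred against Tharparkar.

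Markers of other blood cells moved between the same groups. Over all genes, 6.32% were called lower and 3.3% higher for lame against normal crossbred. The shares were 6.91% lower and 11.7% higher for normal crossbred against Tharparkar, and 10.8% and 12.5% for lame against Tharparkar. Of 16 measured T cell markers, 5 fell in lame against normal crossbred (median -0.55), and 10 rose and 1 fell in normal crossbred against Tharparkar (median 1.17). Their mean level, centred per gene over the 8 arrays, was -0.28 to 0.31 in lame, 0.50 to 0.54 in normal crossbred and -0.54 to -0.47 in Tharparkar arrays. For the 10 cytotoxic genes the same measure was -0.48 to 0.29 in lame, 0.65 to 0.71 in normal crossbred and -0.52 to -0.47 in Tharparkar arrays. CD8A, which marks cytotoxic T cells and is also found on some NK cells, was 2.59-fold lower in lame than in normal crossbred (-1.37, SE 0.13, adjusted p = 0.00146) and 2.19-fold higher in normal crossbred than in Tharparkar (1.13, SE 0.15, adjusted p = 0.0034). CD3D, which encodes the delta chain of CD3, gave -0.54 (SE 0.13, adjusted p = 0.0465) and 0.98 (SE 0.15, adjusted p = 0.00602). CD5, the T cell marker that fell in normal crossbred against Tharparkar, went the other way. It gave 0.18 (SE 0.19, adjusted p = 0.616) and -1.07 (SE 0.23, adjusted p = 0.0176) in the same comparisons. The count of T cell markers that passed was 1 to 4 for lame against normal crossbred with 1 array left out: 2 without lame R1_1, and 1 without either normal crossbred array, without either Tharparkar array and without lame R1_2. For normal crossbred against Tharparkar it was 3 to 13, with 3 without either normal crossbred array or Tharparkar R1 and 5 without Tharparkar R2. Without lame R1_1 and lame R1_2, 7.86% and 7.22% of all genes were called for lame against normal crossbred. The shares without a normal array stand with the pathway lists above. With the random block limma called 0 of them in either comparison, with 5 and 8 at an unadjusted p under 0.05. CD163L1, the gamma-delta T cell marker measured, gave -0.96 for lame against normal crossbred (adjusted p = 0.151) and 1.74 for normal crossbred against Tharparkar (adjusted p = 0.0291). T cell markers share cells with the 10, and their part in the result was not tested.

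Granulocyte markers were lower in lame arrays: 8 of 14 fell against normal crossbred (median -1.70) and 9 against Tharparkar (median -2.14). Their mean centred level was -1.08 to -0.62 in lame, 0.78 to 0.79 in normal crossbred and 1.09 to 1.14 in Tharparkar arrays. CATHL1 and CATHL3, which encode cathelicidins, were not well above background on any lame array. Both passed the filter only through Tharparkar arrays, so any call of them against Tharparkar is no evidence of a difference. CATHL1 was also 1 of the 8 that fell against normal crossbred. It was well above background on 1 normal crossbred array, and its bound there was only 1.21-fold. CXCR2, another of the 8, was well above background on 2 of 4 lame arrays. It passed only through the normal groups, so any call of it against them is no evidence of a difference. Tharparkar arrays had the highest mean, but not every marker was highest there. In normal crossbred against Tharparkar, 2 of the 14 fell and 1, MPO, rose (2.06, SE 0.42, adjusted p = 0.016). The count of 8 was 3 without either normal crossbred array, 5 without either Tharparkar array and 5 without lame R1_2, and the random block called 1 against normal crossbred and 4 against Tharparkar. Of 14 monocyte markers, 4 rose and 2 fell in lame against normal crossbred, and their mean centred level was -0.16 to 0.40 in lame, -0.32 to -0.31 in normal crossbred and 0.03 to 0.06 in Tharparkar arrays. That count of 6 was 2 without either normal crossbred array. Of 7 platelet markers, 6 rose in lame against Tharparkar and 5 in normal crossbred against Tharparkar, and 1 rose and 1 fell in lame against normal crossbred. Their mean centred levels were 0.15 to 0.68 in lame, 0.29 to 0.41 in normal crossbred and -1.21 to -1.11 in Tharparkar arrays. The count of 6 was 3 without either Tharparkar array, and that of 5 was 3 without normal crossbred R2. Of 6 erythroid markers, 1 rose in lame against normal crossbred (median 0.88), with mean centred levels of 0.04 to 0.11 on lame R1, 0.65 to 0.89 on lame R2, -0.34 to -0.17 on normal crossbred and -0.63 to -0.56 on Tharparkar arrays. Of 4 dendritic cell markers, 1 rose in lame against normal crossbred, and 1 rose and 2 fell in normal crossbred against Tharparkar. The marker that rose against Tharparkar was CD1B, which passed the filter only through normal crossbred arrays. Its call is thus no evidence of a difference, and its bound was 1.81-fold. Of 5 B cell markers, limma called 0 in lame against normal crossbred and 0 in normal crossbred against Tharparkar (1 at an unadjusted p under 0.05 in each). Counts from the full set of arrays stand beside the shares of all genes given with the T cell markers. Those with 1 array left out stand beside the shares given with the pathway lists and the T cell markers. The part of these cells in the result was not tested.

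**Figure D4:**
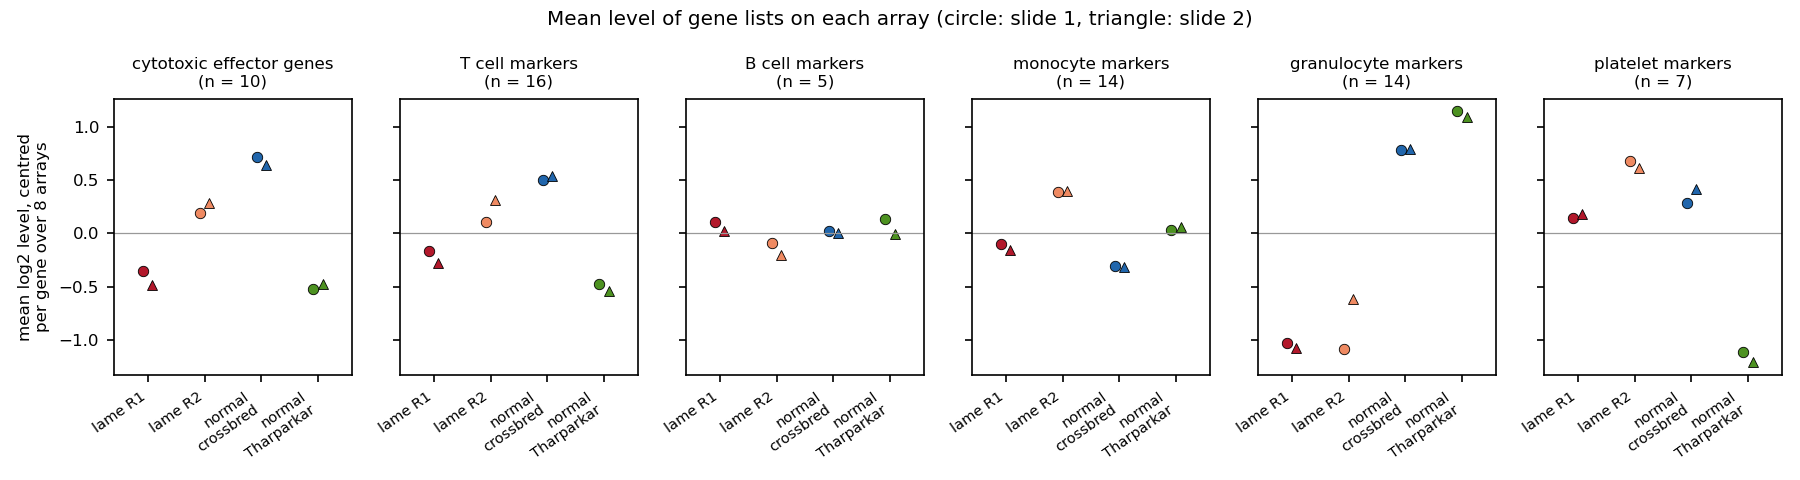
Mean level of 6 gene lists on each array (y axis, log2 signal centred per gene over the 8 arrays) by RNA sample (x axis). Circles are arrays of slide 1 and triangles arrays of slide 2. The cytotoxic and T cell panels are both highest in normal crossbred, lame R1 and Tharparkar overlap in the cytotoxic panel, the granulocyte panel is lowest in lame, and the B cell panel stays between -0.20 and 0.14.

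Among the genes measured outside the 10, the likeness to their mean centred profile over the 8 arrays was taken as the root mean square of the difference, so a small value is a close match. The closest was LEF1, a transcription factor of T cells and 1 of the T cell markers above, at 0.0598 log2 units. Its level was 0.59 and 0.46 on lame R1, 1.26 and 1.28 on lame R2, 1.71 and 1.73 on normal crossbred, and 0.44 and 0.42 on Tharparkar arrays. OPTN, which encodes optineurin, an autophagy receptor, followed at 0.0979, and BBS9, which encodes a subunit of a ciliary transport complex, at 0.101. The other 3 of the closest 6 carried only a transcript accession and are not named. Of the 10 genes themselves, PRF1 was nearest to the common profile at 0.136, and NCR1 and GZMA were farthest at 0.743 and 0.733. The 8 arrays stand for 4 RNA samples, so many genes can share such a profile.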

How the data were processed

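Total RNA of peripheral blood mononuclear cells was labelled with Cy3 and hybridised to 8 Agilent bovine arrays on 2 slides, each with all 3 groups (slide 1: lame R1_1 and R2_1 and R1 of each normal group). The scanner files hold the intensity of each spot as the authors deposited it, background-subtracted and not scaled between arrays, per the file headers. The scanner software was Agilent Feature Extraction, version 12.0.3.1 in those headers and 11.5.1.1 in the submitters' processing notes. The authors' deposited table of log2 values states no scale or centring. Its columns correlated at 0.999966 or more with log2 signal minus the array's 75th percentile and the probe's median over arrays, with column medians of -0.13 to 0.88, so a higher value is a brighter spot.

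Here, spots of a probe were averaged, each array's 75th percentile over 43653 probes was subtracted on the log2 scale, and control spots and 35 probes flagged as outliers were left out. No array had a saturated spot (0 of 43803). A probe stayed if 1 or more groups had it well above background on all their arrays, and each gene took its brightest probe. Probes were named through RefSeq's bovine gene table, in which 27054 matched 1 gene. No genome coordinates or sequences were used.

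Tests used limma 3.58.1 (R 4.3.3) in 1 fit of 3 group means with 5 residual and 2.34 prior degrees of freedom, 2-sided, adjusted by Benjamini-Hochberg over all 15137 genes. The fit was tested on simulated data with independent arrays and the same spread for every gene. The arrays here are duplicates, so that test does not bear on the p-values printed. The alternatives were normexp, quantile scaling, the authors' table, other probe rules and filters, slide, replicate or RNA sample as a block, averaged duplicates, array weights, another variance prior and each array left out. Normexp used the median spot signal, since the files used hold no mean signal. The 10 genes and all lists were chosen with earlier results of these data known. The text names all 10 genes with every probe, up to 3 called genes per pathway list and comparison by size, and the 6 closest profiles. AP3B1, and CD8A, CD3D, CD5, CD163L1, CATHL1, CATHL3, CXCR2, MPO and CD1B among the cell type markers, were chosen after their values were seen. The number of arrays limits precision.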

Additional observations from a re-analysis of the deposited data

Results flagged for a closer look

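The mean level of the 14 granulocyte markers, centred per gene over the 8 arrays, was -1.03 and -1.08 on the lame R1 arrays, and -1.08 and -0.62 on the lame R2 arrays. Lame R2_2 lay apart from the other 3, with a gap of 0.893 of the group's range, above Dixon's 95% critical value for 4 samples. This array was also the brightest of the 8. It was 1 of 31 values tested in this way, chance marks about 1 in 20, and none of the 10 cytotoxic genes was marked. The cause was not tested.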

How the results depend on the processing

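Counts of called genes among the 10 were recomputed under 24 alternatives for each comparison. For lame against normal crossbred, where 6 were called, the count was 2 with no filter on dim probes, 0 with duplicates averaged, 0 with the RNA sample as a random block (correlation 0.82), and 1 to 6 with single arrays left out. For normal crossbred against Tharparkar, where 6 were called, it was 0 with duplicates averaged, 0 with the random block, and 3 to 8 with single arrays left out. For lame against Tharparkar, where 3 were called, it was 1 with no filter, 0 with duplicates averaged, 0 with the random block, 6 with array weights, 7 without both lame R1 arrays and 6 without both lame R2 arrays (where 56%, 58.2% and 55.3% of all genes were called, so that these counts are near the background), and 0 to 3 with single arrays left out. With duplicates averaged 1 residual degree of freedom is left. Between lame R1 and lame R2, where 7 were called, normexp gave 4 and single arrays left out 4 to 6. Of the 22 probes, the random block called 0 in each comparison (9, 11 and 5 otherwise), normexp called 7 for normal crossbred against Tharparkar and 3 for lame against Tharparkar, and single arrays left out gave 0 to 9, 5 to 13 and 1 to 5.

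With the replicate block by the last number in the title, the counts were 6, 6 and 2. That number also marks the slide, per the file headers, and differences between numbers correlated at only 0.0332 to 0.3427 between RNA samples, so it does not pair them beyond the slide.

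Some log2 differences turned sign. For lame against normal crossbred, GZMA gave -0.33 with the mean of its probes, -0.28 with array weights, -0.28 without both lame R2 arrays and -0.004 to 0.647 with single arrays left out (lowest without lame R2_2), and NCR1 gave -0.27 with array weights and -0.39 without lame R2. For normal crossbred against Tharparkar, normexp gave GZMA -0.24, NCR1 -0.57, KLRD1 -0.32 and EOMES -0.22, and NCR1 gave -0.003 to 0.269 with single arrays left out (lowest without normal crossbred R1). For lame against Tharparkar, normexp gave GZMA -0.11, NKG7 0.062, NCR1 -0.37, KLRD1 -0.66 and EOMES -0.39, quantile scaling gave NKG7 0.11, and the mean of probes gave FASLG 0.056. There, array weights gave NCR1 -0.14, KLRK1 -0.34 and a median of the 10 genes of -0.058, and leaving out lame R2 gave NCR1 -0.26, KLRK1 -0.40 and a median of -0.10. Leaving out lame R1 gave GZMB 0.075, and single arrays left out gave KLRK1 -0.006 (without lame R2_2) to 0.421. Between lame R1 and lame R2, quantile scaling gave CTSW -0.045 and FASLG 0.056, and the mean of probes gave CTSW -0.14. Array weights gave the lame R2 arrays 0.113 and 0.0797, the lowest of the 8. The causes were not tested.

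Over all genes and lame against normal crossbred, where 1455 were called, the count was 23 with the random block, 167 with duplicates averaged, 356 with no filter, 629 with normexp and 7311 with array weights. No filter moved the median of all genes to 0.31, -0.21 and 0.22 in the 3 comparisons, and normexp to -0.10 for normal crossbred and -0.16 for lame against Tharparkar.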
